A study of Mus musculus with 6 samples.

Results

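The mitochondrial ribosomal proteins of mouse brain endothelium were followed as 77 genes, chosen by their symbols. A gene belonged when its symbol was Mrpl or Mrps, followed by a number and at most 1 further letter, and 77 of the 24421 symbols in the files did so. The Mrpl symbols made up 48 genes of the large subunit and the Mrps symbols 29 genes of the small subunit. The measured groups were endothelial cells sorted from glioma (3 libraries) and endothelial cells sorted from non-tumor brain (3 libraries), all from C57BL/6 mice. The glioma came from GL26l cells placed in the brain by injection, with tissue taken after 3 weeks, so it models a transplanted tumor line and not a tumor arising in the host. The series' design text speaks of 3 independent sets of RNA, but whether a set was 1 animal or a pool is not stated, so the p-values here measure the spread between these samples, which may in part be technical. The comparison asks at which genes the vessels of the tumor and those of the brain differ.

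Mitochondria carry their own ribosome. It makes the few proteins that mitochondrial DNA encodes, which are core subunits of the respiratory chain and of ATP synthase. Its ribosomal RNAs are made inside the organelle, whereas every one of its proteins is encoded in the nucleus, translated on cytosolic ribosomes and imported. The proteins fall into those with a counterpart in bacterial ribosomes and those found in mitochondria alone. By that division 30 of the large subunit genes have a bacterial counterpart and 18 do not, and 18 of the small subunit genes have one and 10 do not. Mrps36 was left without a class, because its product is now counted as part of the oxoglutarate dehydrogenase complex. The gene symbols predate the structures of the ribosome, and the proteins of Mrps30 and Mrps18a sit in the large subunit of the mammalian ribosome.

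All 77 genes were found in the mouse annotation, GENCODE M21 on build GRCm38, the build that is also called mm10. They lay on 17 chromosomes, with 10 genes on chromosome 11, 8 on chromosome 17 and 7 on chromosome 6. They were short, with a median span of 7894 bases against 24854 bases for the tested protein-coding genes. The start of a member often lay next to the start of another protein-coding gene transcribed the other way. Such a head-to-head neighbour, with its 5′ end within 1000 bases whether or not the genes overlap, was found for 33 of the 77 members (42.9%), against 1736 of the 10900 other tested protein-coding genes (15.9%). For 21 members (27.3%) that neighbour started within 200 bases. The large subunit genes had one in 24 of 48 cases (50%) and the small subunit genes in 9 of 29 (31.0%). Among these neighbours were other genes of the same organelle. Mrpl36 started 29 bases from Ndufs6 and Mrpl47 started 615 bases from Ndufb5, both subunits of respiratory complex I. Mrpl43 started 779 bases from Peo1, the helicase of mitochondrial DNA, and Mrps12 started 172 bases from Sars2, the mitochondrial seryl-tRNA synthetase. Mrpl46 and Mrps11 are one such pair within the set, with starts 412 bases apart. Among the members on which the comparison turns, Mrps23 spans chr11:88204388-88211507, Mrpl17 chr7:105803206-105811099, Mrpl39 chr16:84717576-84735742, Mrpl54 chr10:81264713-81266934, Mrpl12 chr11:120484613-120489065 and Mrps31 chr8:22411361-22429665.

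Promoter sequences were at hand for 68 of the 77 genes, from RefSeq on GRCm38.p6. A gene with several entries counted once, if any of them held the motif. The 250 bases before each start were searched on both strands for 4 exact motifs. These were CCGGAAG, the core of ETS factors such as GABPA, GCGCATGCG for NRF1, AAGATGGCG for YY1 and TATAAA for the TATA box. ETS factors, NRF1 and YY1 are known regulators of nuclear genes for mitochondrial proteins. The ETS motif was present in 17 of the 68 genes (25%), against 15.7% of the 8952 tested genes with a promoter entry and 7.83% of all 27025 genes with one. The NRF1 motif was present in 7 genes (10.3%), against 3.35% of the tested genes and 1.64% of all genes. YY1 was present in 2 genes (2.94%), against 1.44% of the tested genes and 0.71% of all genes. TATAAA was present in 5 genes (7.35%), against 7.83% of the tested genes and 14.3% of all genes. The NRF1 motif is close to its own reverse complement, so a match on both strands can cover the same bases. The large subunit held 6 of the 7 genes with the NRF1 motif. A match describes the letters in the window, and binding was not measured.

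**Figure D1:**
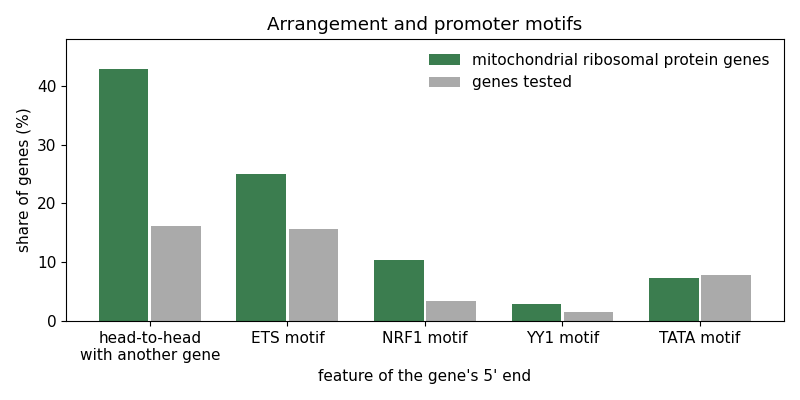
Share of genes (%, vertical axis) with a feature of the 5′ end (horizontal axis), with the mitochondrial ribosomal protein genes in green and the tested genes in grey. A head-to-head neighbour was present for 42.9% of 77 members and 16.1% of tested protein-coding genes, members included, and the motif shares are over the 68 members and 8952 tested genes with a promoter entry.

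The last 120 bases before the start follow, 5′ to 3′ on the gene's strand, for the members on which the comparison turns, with Mrpl22 added because it is a member with both an ETS and an NRF1 match in this stretch. Capitals mark an ETS, NRF1 or YY1 match on either strand. The stretches lie at chr11:88204268-88204387 (Mrps23, plus strand), chr7:105811088-105811207 (Mrpl17, minus strand), chr8:71464806-71464925 (Mrpl34, plus strand), chr16:84735245-84735364 (Mrpl39, minus strand), chr7:78783011-78783130 (Mrps11, plus strand), chr11:5707702-5707821 (Mrps24, minus strand), chr11:120484517-120484636 (Mrpl12, plus strand), chr8:22411220-22411339 (Mrps31, plus strand) and chr11:58171544-58171663 (Mrpl22, plus strand) of GRCm38.p6.
Mrps23: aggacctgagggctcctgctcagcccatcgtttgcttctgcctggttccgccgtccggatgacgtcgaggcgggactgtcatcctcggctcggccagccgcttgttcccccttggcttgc
Mrpl17: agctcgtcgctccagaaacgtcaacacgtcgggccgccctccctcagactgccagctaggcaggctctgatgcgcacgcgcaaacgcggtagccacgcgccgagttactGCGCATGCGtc
Mrpl34: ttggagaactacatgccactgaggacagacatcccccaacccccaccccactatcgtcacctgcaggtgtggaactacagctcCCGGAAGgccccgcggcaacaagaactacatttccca
Mrpl39: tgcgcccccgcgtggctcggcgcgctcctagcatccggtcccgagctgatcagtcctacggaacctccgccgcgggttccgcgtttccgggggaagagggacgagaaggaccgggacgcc
Mrps11: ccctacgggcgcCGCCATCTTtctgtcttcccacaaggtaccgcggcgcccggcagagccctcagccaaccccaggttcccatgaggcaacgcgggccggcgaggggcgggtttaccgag
Mrps24: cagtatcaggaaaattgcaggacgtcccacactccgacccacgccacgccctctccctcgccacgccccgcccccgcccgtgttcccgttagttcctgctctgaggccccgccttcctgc
Mrpl12: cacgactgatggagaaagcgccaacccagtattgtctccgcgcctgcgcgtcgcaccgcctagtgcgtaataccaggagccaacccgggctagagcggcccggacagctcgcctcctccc
Mrps31: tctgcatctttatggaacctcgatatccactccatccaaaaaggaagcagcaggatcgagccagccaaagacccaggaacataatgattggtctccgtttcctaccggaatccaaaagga
Mrpl22: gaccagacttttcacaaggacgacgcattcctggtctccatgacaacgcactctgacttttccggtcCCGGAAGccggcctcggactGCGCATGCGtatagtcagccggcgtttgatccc
Of these 9 stretches, those of Mrps23, Mrpl39, Mrps24, Mrpl12 and Mrps31 held no match. Mrpl17 held the NRF1 motif 11 bases before its start, and Mrpl34 the ETS motif 37 bases before its start. Mrps11 held the YY1 motif on the opposite strand, 108 bases before its start. In Mrpl22 the ETS match began 53 bases and the NRF1 match 33 bases before the start.

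The values are deposited log2 values of 3′ tag libraries, which count the 3′ end of each transcript, so they do not grow with gene length. They are read as log2 of a normalized value plus 1. A gene without a value above 0 in a library is described as listed at 0 there. The number of genes above 0 differed widely, at 13108, 10954 and 10013 in the 3 glioma libraries in numerical order, against 7446, 11853 and 13072 in the 3 normal libraries. The lowest value above 0 ran from 0.42 to 5.22 in the glioma libraries and was 7.43, 2.84 and 0.22 in normal replicates 1, 2 and 3. Normal replicate 1 thus stood apart, with no value between 0 and 7.43, and the results that rest on it are given with and without it. All 10 endothelial markers were above 0 in every library, with medians of 13.25 to 13.93 in the glioma libraries and 13.29 to 14.24 in the normal libraries. Markers of other cells were also present, with 3 to 11 of 14 microglia and macrophage markers above 0 in the glioma libraries and 6 to 9 in the normal libraries. Their summed level was 9.78 to 13.53 (log2) in the glioma libraries and 8.15 to 11.99 in the normal libraries, and Adgre1 was at 0 in all of them. Of 6 fibroblast markers, 0 to 6 were above 0 in the glioma libraries and 2 to 4 in the normal libraries. Erythroid markers summed to 17.45, 15.58 and 13.14 (log2) in the glioma libraries and 12.90, 14.86 and 14.66 in the normal ones. The endothelial sum in glioma replicate 1 was 17.51. Pericyte and smooth muscle markers summed to 13.21 to 13.81 in glioma and 12.27 to 14.12 in normal libraries. Neuronal markers reached 12.81 in glioma replicate 1, and oligodendrocyte markers 11.48 and 11.58 in normal replicates 2 and 3. The part of such cells in the values below was not tested. Numbers that read like dates in the file names are shared within groups and never between them, so a batch and the group cannot be told apart.

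Most mitochondrial ribosomal protein genes were detected at middling levels in these endothelial cells. In glioma replicates 1, 2 and 3, 76, 73 and 72 of the 77 members were above 0, against 53, 74 and 76 in normal replicates 1, 2 and 3. The median level over the members was 8.48, 8.16 and 8.26 (log2) in the glioma libraries, against 8.67, 8.21 and 8.09 in the normal libraries. Together the members made up 0.294%, 0.186% and 0.232% of the back-transformed sum of the glioma libraries, against 0.342%, 0.168% and 0.157% of that of the normal libraries. The highest share lay in normal replicate 1 and the lowest in normal replicate 3, so the glioma libraries fell inside the range of the normal ones. All 3 glioma shares lay above the normal shares left when normal replicate 1 is set aside. This did not hold for the large subunit, where glioma replicate 2 (0.0962%) lay below normal replicate 2 (0.0979%). It held for the small subunit, at 0.140%, 0.0899% and 0.104% against 0.0705% and 0.0662%. There it came with the genes without a bacterial counterpart, and in the glioma libraries much of their sum was Mrps23. Their log2 sums were 13.84, 12.93 and 13.35 in glioma replicates 1, 2 and 3, where Mrps23 had 13.35, 11.90 and 12.83. In normal replicates 2 and 3 the sums were 12.17 and 12.15, and Mrps23 had 9.52 and 10.13. Without normal replicate 1, 3 of the 9 tested genes of this class were higher in glioma, so the share does not stand for the class. Shares without Mrps23 were not computed. For the genes with a counterpart, glioma replicate 3 (0.0423%) lay below normal replicate 2 (0.0427%). In bulk samples, fewer cells of a type and less RNA per cell cannot be told apart.

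**Figure D2:**
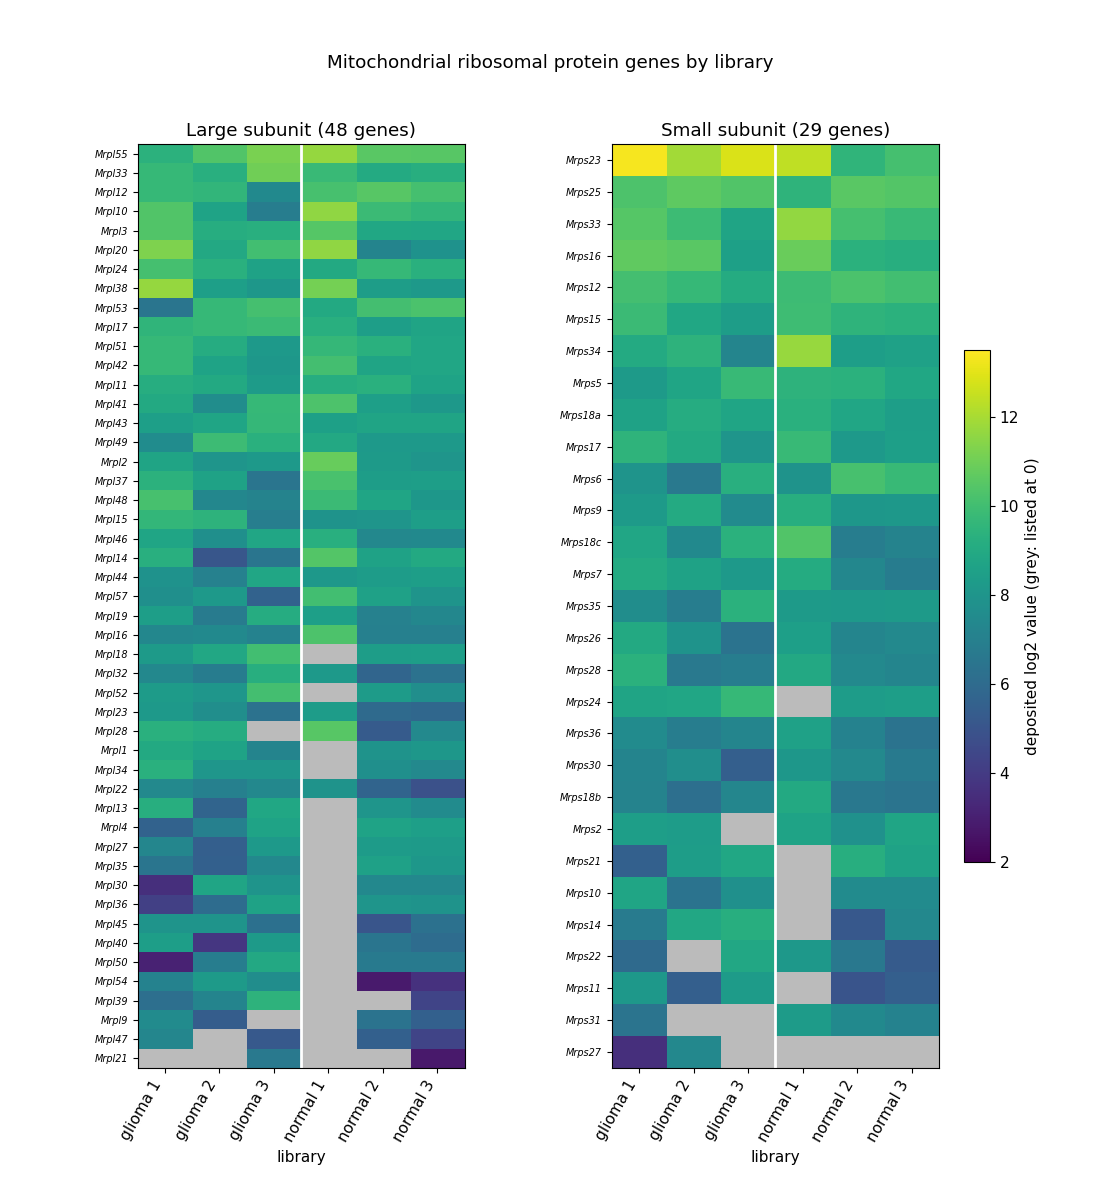
Deposited log2 value (colour) of each mitochondrial ribosomal protein gene (rows, ordered by mean) in the 6 libraries (columns), with the 48 large subunit genes at left and the 29 small subunit genes at right. Grey marks a gene listed at 0, and 24 of the 77 genes are grey in normal replicate 1 against 1 to 5 in each other library.

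The small subunit was led by Mrps23, a protein with no bacterial counterpart. Its level was 13.35, 11.90 and 12.83 in glioma replicates 1, 2 and 3, against 12.41, 9.52 and 10.13 in normal replicates 1, 2 and 3. It was the highest of the 77 members in each glioma library and in normal replicate 1, and stood 10th and 5th in normal replicates 2 and 3. Mrps25, also specific to mitochondria, was next, at 10.29, 10.66 and 10.38 in the glioma libraries and 9.46, 10.57 and 10.44 in the normal libraries. The glioma values of Mrps25 lay within 0.38 of each other, and the last 300 bases of its transcript lie across an exon of Nr2c2 on the opposite strand. Mrps33 had 10.48, 9.91 and 8.72 in the glioma libraries and 11.62, 10.12 and 9.80 in the normal libraries. In the large subunit, Mrpl55, the counterpart of bacterial L31, had 9.38, 10.37 and 11.17 in the glioma libraries and 11.69, 10.58 and 10.52 in the normal libraries. It was the highest member in normal replicates 2 and 3. Mrpl33 followed, at 9.71, 9.25 and 11.02 in the glioma libraries and 9.79, 9.03 and 9.19 in the normal libraries.

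At the low end stood genes that several libraries did not record. Mrpl21 was listed at 0 in replicates 1 and 2 of each group, and had 6.64 in glioma replicate 3 and 2.81 in normal replicate 3. Mrps27, specific to mitochondria, had 3.56, 7.38 and 0 in the glioma libraries and was listed at 0 in all 3 normal libraries. These 2 genes did not pass the filter, for which a gene had to reach a back-transformed value of 1 in 3 or more libraries, and the other 75 members (47 large, 28 small) were tested.

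The number of members listed at 0 was not even across the libraries. It was 1, 4 and 5 in glioma replicates 1, 2 and 3, against 24, 3 and 1 in normal replicates 1, 2 and 3. Of the 24 in normal replicate 1, 18 were large subunit genes (of 48) and 6 small subunit genes (of 29), and 19 of the 24 were above 0 in all 5 other libraries. The members at 0 there had a median level of 7.37 in the other libraries, close to the 7.43 at which the values of normal replicate 1 begin, whereas the members above 0 there had 8.45. The share of members at 0 in that library, 31.2%, compares with 39.2% of the 11862 genes tested. Between levels of 7.24 and 8.76, the quartiles of the members, 14 of 39 members (35.9%) were at 0 there, beside 1109 of 2657 tested genes (41.7%). By these shares the zeros of normal replicate 1 were not more common among the members than among other genes.

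No mitochondrial ribosomal protein gene differed between glioma and normal endothelium after adjustment. In limma's moderated test with Benjamini-Hochberg adjustment over 11862 genes, 0 of 75 members passed 0.05, beside 0% of all genes tested, and the smallest adjusted p in the table was 0.875. At an unadjusted p under 0.05, 3 members were higher in glioma (Mrps23, Mrpl39 and Mrpl54), beside 2.35% of all genes in that direction, and 0 members were lower, beside 1.94%. With the variance prior fitted without a mean trend, 15 genes passed the adjusted threshold, and 0 of them were members. The members' differences had a median standard error (SE) of 1.19 on the log2 scale and a median unadjusted 95% confidence interval of 2.70 to either side. A change smaller than that was mostly not detectable here even at an unadjusted p under 0.05. After adjustment larger ones could go uncalled too, as differences of 6.16 (Mrpl39) and 5.52 (Mrpl54) did not pass. The difference lay within 1 log2 unit of 0 for 43 of the 75, beside 5540 of the 11862 genes tested.

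The subunits appeared to part by direction, and that split moved with normal replicate 1. Over all 6 libraries, 31 of 47 large subunit members had a positive difference, glioma minus normal, with a median of 0.51 (log2). Of the 28 small subunit members, 11 were positive, with a median of -0.17. The median over all genes tested was 0.05. Without normal replicate 1, 26 of 47 large subunit members were positive with a median of 0.16, and 16 of 28 small subunit members were positive with a median of 0.12, beside a median of -0.36 over all genes. Among the 49 members that every library recorded, 14 of 29 large subunit members were positive with a median of -0.20, and 6 of 20 small subunit members with a median of -0.22, beside -0.18 over all such genes. Within the large subunit, 21 of 29 tested genes with a bacterial counterpart were positive (median 0.66), and 10 of 18 without one (median 0.24). Within the small subunit, 8 of 18 with a bacterial counterpart were positive (median -0.02), and 3 of 9 without one (median -0.63). The order of the large subunit classes turned without normal replicate 1, with 15 of 29 positive (median 0.15) for genes with a counterpart and 11 of 18 (median 0.35) for those without one. In the small subunit 12 of 18 were then positive (median 0.26) with a counterpart and 3 of 9 (median -0.26) without one.

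**Figure D3:**
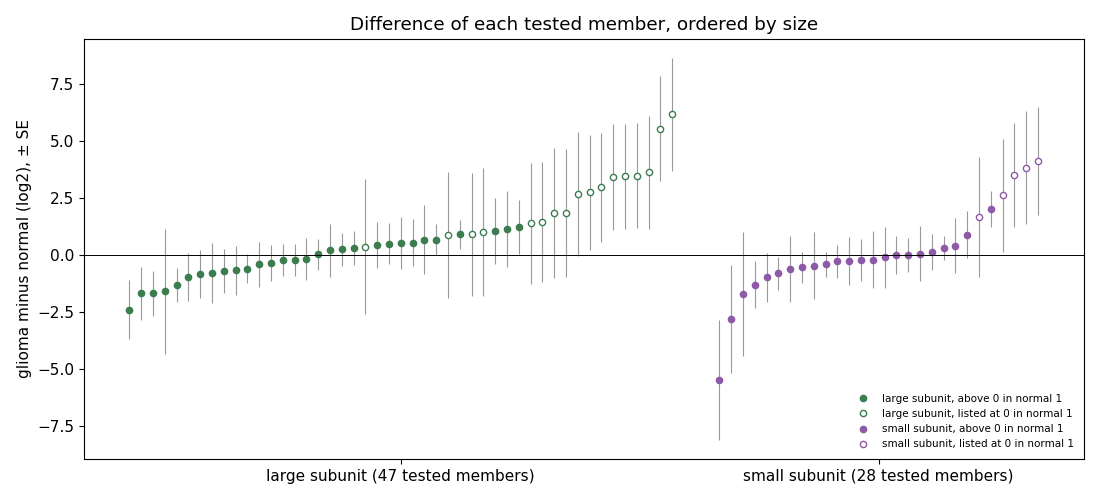
Difference of each tested member, glioma minus normal (log2, vertical axis, bars ± SE), ordered by size within the large subunit (47 genes) and the small subunit (28 genes). Open circles are genes listed at 0 in normal replicate 1, and these 22 genes have positive differences, 17 in the large and 5 in the small subunit.

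The highest differences belonged to members listed at 0 in normal replicate 1. The 22 tested members listed at 0 there had positive differences throughout, from 0.35 to 6.16 (log2), with a median of 2.70. The 53 members above 0 there were positive in 20 cases and negative in 33, with a median of -0.24. Without normal replicate 1 the medians were 0.22 for the 22 genes and 0.15 for the 53. Where normal replicate 1 did record a member, it often gave the highest value of the 6 libraries, as for 28 of the 53 (52.8%), beside 2673 of 7218 genes above 0 there (37.0%). All genes tested showed the same parting, with a median of 1.69 for the 4644 at 0 in normal replicate 1 and -0.33 for the 7218 above 0.

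**Figure D4:**
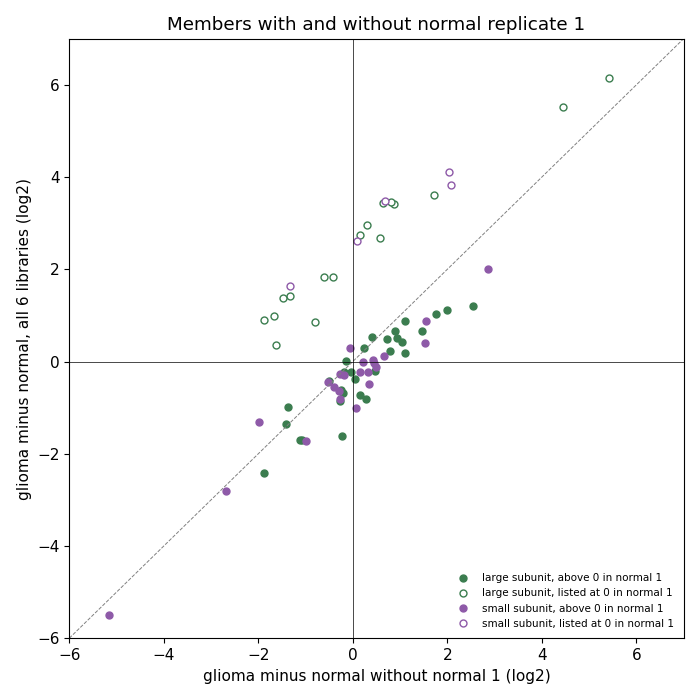
Difference of each tested member over all 6 libraries (vertical axis, log2) against the difference without normal replicate 1 (horizontal axis, log2), with the line of equal values dashed. The open circles, members listed at 0 in normal replicate 1, lie above the line, and Mrpl39 and Mrpl54 at the upper right stay above 4 on both axes.

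The glioma and normal values did not overlap for 8 of the 75 tested members. In 6 the glioma libraries lay above the normal ones, beside 6.91% of all genes tested, and in 2 they lay below, beside 6.37%. The 8 members were 10.7% of those tested, and the same count over all genes in either direction was 13.3%. Of the 6 higher ones, 5 were listed at 0 in normal replicate 1, and Mrpl17 was above 0 in every library. Mrpl17, the counterpart of bacterial L17 in the large subunit, had 9.53, 9.73 and 9.84 in glioma replicates 1, 2 and 3, against 9.24, 8.47 and 8.74 in normal replicates 1, 2 and 3. The lowest glioma value was thus 0.30 above the highest normal value. It averaged 9.70 ± 0.16 in glioma and 8.81 ± 0.39 in normal endothelium (SD, n = 3 each), a difference of 0.89 (SE 0.64, adjusted p 0.875 by limma). That difference was 0.71 to 1.10 when any 1 library was left out.

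Mrpl39 and Mrpl54, both specific to mitochondria, had the highest differences of all members. Mrpl39 had 6.20, 7.20 and 9.43 in the glioma libraries, against 0, 0 and 4.36 in normal replicates 1, 2 and 3. Mrpl54 had 7.11, 8.29 and 7.66 in the glioma libraries, against 0, 2.84 and 3.64 in the normal ones. The differences on the deposited scale, 6.16 (SE 2.48) and 5.52 (SE 2.31), hold the gap between 0 and each library's lowest value. Without normal replicate 1 they were 5.43 and 4.44, and with every value raised to a shared floor of 7.43 they were 0.67 and 0.36. All normal values then stand at the floor, as do glioma replicates 1 and 2 for Mrpl39 and glioma replicate 1 for Mrpl54. The head-to-head neighbour of Mrpl54, Apba3, whose start lies 26 bases away, had 6.65, 5.47 and 0 in the glioma libraries and 8.63, 0 and 3.72 in the normal ones, with groups that overlapped.

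Mrpl34, the counterpart of bacterial L34, had 9.29, 8.04 and 8.05 in the glioma libraries, against 0, 7.74 and 7.42 in the normal ones. Mrps24, the counterpart of bacterial S3 at the entrance of the mRNA channel, had 8.71, 8.81 and 9.70 in the glioma libraries, against 0, 8.34 and 8.46 in the normal ones. Their differences were 0.88 and 0.67 without normal replicate 1, in place of 3.41 (SE 2.32) and 3.47 (SE 2.28). Mrps11, the counterpart of bacterial S11, had 8.11, 5.47 and 8.33 in the glioma libraries, against 0, 4.98 and 5.46 in the normal ones, and glioma replicate 2 lay 0.0054 above normal replicate 3. Mrpl46, its head-to-head neighbour, had 8.76, 7.74 and 8.82 in the glioma libraries and 9.25, 7.35 and 7.46 in the normal ones, so its groups overlapped through normal replicate 1.

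**Figure D5:**
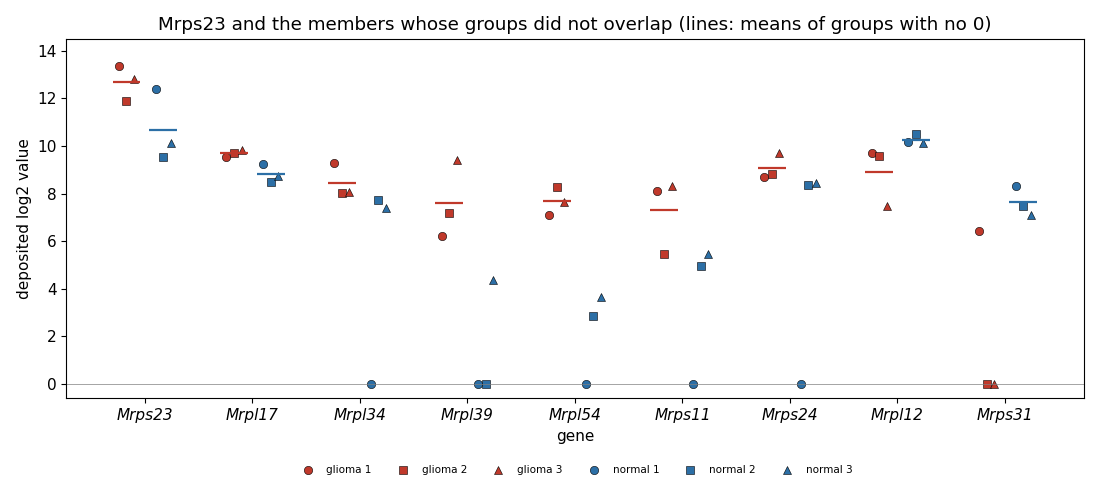
Deposited log2 value (vertical axis) of Mrps23 and of the 8 members whose groups did not overlap (horizontal axis), with glioma libraries in red at left and normal libraries in blue at right of each gene. Lines are means of groups with no value at 0, and 5 of the 6 genes that lie higher in glioma are at 0 in normal replicate 1.

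Mrps23 had the smallest unadjusted p of the members, at 0.030, although its groups overlapped. It averaged 12.69 ± 0.73 in glioma and 10.68 ± 1.52 in normal endothelium (SD, n = 3 each), a difference of 2.01 (SE 0.78, adjusted p 0.875 by limma). Normal replicate 1, at 12.41, lay inside the glioma range, and normal replicates 2 and 3 lay 1.77 or more below the lowest glioma value. Without normal replicate 1 the difference was 2.87 (adjusted p 0.383). The 10 proliferation genes, background for dividing cells, stood high in the same libraries. Their median was 9.91, 8.35 and 8.53 in glioma replicates 1, 2 and 3, against 9.35, 0 and 0 in normal replicates 1, 2 and 3. All 10 of them were above 0 in each glioma library, against 8, 3 and 4 in the normal libraries, and their part in the level of Mrps23 was not tested.

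The members that lay wholly lower in glioma were Mrpl12 and Mrps31, and such a gene is by definition above 0 in every normal library. Mrpl12, the counterpart of the bacterial stalk protein L7/L12 that recruits translation factors, had 9.69, 9.57 and 7.47 in glioma replicates 1, 2 and 3, against 10.15, 10.51 and 10.13 in normal replicates 1, 2 and 3. Glioma replicate 3 was the lowest by more than 2 log2 units. It averaged 8.91 ± 1.25 in glioma and 10.26 ± 0.21 in normal endothelium (SD, n = 3 each), a difference of -1.35 (SE 0.75, adjusted p 0.875 by limma), which was -0.63 without glioma replicate 3. The 3′ end of Mrpl12 is overlapped by the opposite-strand gene Gm16755, and whether the authors' counting used strand is not given in the sources used here. Mrps31, specific to mitochondria, had 6.41, 0 and 0 in the glioma libraries, against 8.32, 7.47 and 7.11 in the normal ones. With the shared floor its groups overlapped, since all glioma values and the lower normal value then stand at or near the floor.

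Other members had groups that overlapped and did not pass the adjusted threshold. Mrpl14, the counterpart of bacterial L14, had 9.26, 5.06 and 6.47 in the glioma libraries, against 10.43, 8.63 and 8.99 in the normal ones, a difference of -2.42 (SE 1.29, adjusted p 0.875 by limma). Glioma replicate 1 fell between the normal values and the other glioma libraries lay below them all. Mrps14, the counterpart of bacterial S14, had 6.79, 8.87 and 9.22 in the glioma libraries, against 0, 5.17 and 7.36 in the normal ones, and its difference of 4.12 was 2.03 without normal replicate 1. Mrpl10, which anchors the stalk of Mrpl12, had 10.36, 8.68 and 6.89 in the glioma libraries and 11.60, 9.84 and 9.58 in the normal ones. Its values and those of Mrpl12 were both lowest in glioma replicate 3.

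The spread within groups was wide at the 49 members that every library recorded. The median SD between replicates was 0.90 in glioma and 0.89 in normal endothelium, beside 0.88 and 0.64 over the 5880 such genes. Normal replicates 2 and 3 differed by a median of 0.27 at these members, beside 0.20 over all such genes. The difference between the group means exceeded the pooled SD for 8 of the 49 members (16.3%), beside 33.2% of all such genes. These 8 were Mrps23 and Mrpl17, which were higher in glioma, and Mrpl10, Mrpl12, Mrpl14, Mrpl57, Mrps6 and Mrps12, which were lower. Cytosolic ribosomal proteins did so in 34 of 80 cases (42.5%) and complex I subunits in 15 of 33 (45.5%).

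The members with the smallest spread over the 6 libraries had their highest and lowest values 0.87 to 1.16 apart. Mrps12, the counterpart of bacterial S12 at the decoding centre, had 10.06, 9.69 and 9.07 in the glioma libraries and 9.87, 10.22 and 10.03 in the normal ones. Mrps18a had 8.62, 9.14 and 8.76 in the glioma libraries and 9.32, 8.81 and 8.44 in the normal ones, a difference of -0.02 (95% confidence interval -1.68 to 1.64). Mrpl11, at the base of the stalk, had 9.17, 8.97 and 8.30 in the glioma libraries and 9.17, 9.30 and 8.68 in the normal ones. Mrpl43 had 8.48, 8.77 and 9.64 in the glioma libraries and 8.54, 8.72 and 8.73 in the normal ones. The intervals of these 4 genes each held 0. The narrowest was that of Mrps12 (-1.73 to 0.86) and the widest that of Mrpl43 (-1.40 to 2.00). Changes within these intervals could not be told from 0.

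The 3 genes of the Mrps18 family encode related proteins that occupy different places in the ribosome. Mrps18b had 7.13, 6.20 and 7.26 in the glioma libraries and 9.00, 6.62 and 6.41 in the normal ones. Mrps18c, the direct counterpart of bacterial S18, had 8.81, 7.47 and 9.34 in the glioma libraries and 10.38, 6.89 and 7.15 in the normal ones. Both were highest in normal replicate 1, and without that library their differences were 0.35 and 1.52, in place of -0.48 and 0.40 with all 6. Mrps30 had 7.19, 7.69 and 5.48 in the glioma libraries and 8.09, 7.42 and 6.74 in the normal ones. A pseudogene with a near-identical 3′ end exists for Mrps18c and for Mrpl22, Mrpl23, Mrpl30, Mrpl48, Mrps10 and Mrps21, and how reads were shared with them is not given in the sources used here.

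Head-to-head neighbours among mitochondrial genes could differ in which libraries recorded them. Ndufs6 had 12.19, 11.16 and 10.42 in the glioma libraries and 12.71, 10.36 and 10.53 in the normal ones. Mrpl36, which starts 29 bases away, had 4.17, 6.05 and 8.64 in the glioma libraries and 0, 8.01 and 7.90 in the normal ones. Ndufb5 had 10.89, 10.32 and 10.91 in the glioma libraries and 10.94, 9.95 and 10.06 in the normal ones, while Mrpl47 had 7.26, 0 and 5.22 in the glioma libraries and 0, 5.54 and 4.36 in the normal ones. In both cases the complex I gene was above 0 in every library and its neighbour was not. Sars2 was listed at 0 in glioma replicate 2 and in all 3 normal libraries, and had 4.17 and 7.37 in glioma replicates 1 and 3, where Mrps12 was above 9 in all 6. Of the 31 pairs with both genes in the files, 13 included a member at 0 in normal replicate 1. In 5 of those the other gene was at 0 there too, beside 39.2% of all genes tested at 0 there. The 2 shares are not like for like, since the neighbours were not limited to tested genes. Oaz3, the neighbour of Mrpl9, was at 0 in all 6 libraries and was not tested. In 23 pairs both genes were tested, and in 17 of these their differences had the same sign. The same count was not made for other pairs of genes. All 22 tested members at 0 in normal replicate 1 had positive differences, so these signs rest in part on that library.

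Other parts of mitochondrial translation showed no gene past the adjusted threshold either. The 6 ribosomal subunits known by other symbols were positive in 4 cases, with a median difference of 0.93, which was -0.22 without normal replicate 1, 0.29 without glioma replicate 1, 0.10 without glioma replicate 2 and 2.42 without glioma replicate 3. Among them Dap3, a GTP-binding protein of the small subunit, had 11.21, 8.59 and 7.68 in the glioma libraries and 0, 9.66 and 9.35 in the normal ones. Gadd45gip1, a large subunit protein, had 9.13, 8.40 and 6.97 in the glioma libraries and 0, 6.88 and 7.31 in the normal ones. Both were at 0 in normal replicate 1, and without it the differences were -0.35 for Dap3 and 1.07 for Gadd45gip1.

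Genes for ribosome assembly and ribosomal RNA modification were negative in 15 of 22 cases, with a median of -0.65, and 5 lay wholly lower in glioma, beside 6.37% of all genes, and 1 wholly higher, beside 6.91%. Dhx30, an RNA helicase of assembly, had 10.30, 10.49 and 10.44 in the glioma libraries, against 11.74, 11.16 and 10.97 in the normal ones. Its groups did not overlap, with a difference of -0.88 (SE 0.47, adjusted p 0.875 by limma). Ftsj2, which methylates the large ribosomal RNA of mitochondria, had 0, 5.31 and 5.60 in the glioma libraries, against 8.19, 7.22 and 7.07 in the normal ones. The median of the list was -0.11 without glioma replicate 3 and between -0.95 and -0.50 with any other single library left out.

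Translation factors were positive in 9 of 12 cases, with a median of 0.51, which was -0.45 without normal replicate 1. Mtif2, the initiation factor that brings the initiator tRNA, had 10.04, 10.00 and 8.99 in the glioma libraries, against 10.65, 10.92 and 10.99 in the normal ones, so its groups did not overlap. Its difference was -1.18 (SE 0.54, adjusted p 0.875 by limma). Guf1, a GTPase that moves the ribosome back along the message, had 2.87, 5.16 and 0 in the glioma libraries and 9.20, 4.90 and 6.40 in the normal ones. The mitochondrial aminoacyl-tRNA synthetases were positive in 7 of 13 cases (median 0.56), and that median ran from -0.43 without normal replicate 2 to 0.42 without normal replicate 3. Ears2, for glutamate, had 8.98, 7.69 and 5.22 in the glioma libraries, against 0, 4.04 and 3.35 in the normal ones, and Cars2, for cysteine, had 6.54, 7.60 and 0 in the glioma libraries, against 8.67, 8.34 and 7.65 in the normal ones. These 2 parted the groups in opposite directions. Of the 13 synthetases 1 was wholly higher and 2 wholly lower in glioma, beside 6.91% and 6.37% of all genes. For the 12 translation factors these counts were 0 and 1.

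Genes of mitochondrial transcription and RNA processing were positive in 7 of 11 cases (median 0.65), with 3 wholly higher in glioma, beside 6.91% of all genes, and 3 wholly lower, beside 6.37%. The median was 2.94 without glioma replicate 3 and turned to -0.15 with the shared floor, and the 2 genes above 0 in all 6 libraries had a median of -0.10. Elac2, which trims the 3′ end of tRNAs, had 5.38, 0 and 0 in the glioma libraries, against 7.87, 6.81 and 6.03 in the normal ones. Trmt10c, a subunit of the enzyme that cuts the 5′ end, had 4.17, 7.62 and 7.46 in the glioma libraries and 0, 0 and 4.21 in the normal ones. Regulators of nuclear genes for mitochondria were positive in 4 of 8 cases (median 0.09). Gabpa, the ETS factor named above, had 7.43, 8.35 and 8.01 in the glioma libraries and 10.53, 3.42 and 4.12 in the normal ones, so normal replicates 2 and 3 lay below and normal replicate 1 above the glioma values. Ppargc1b had 2.62, 0 and 0 in the glioma libraries and 0, 4.77 and 4.49 in the normal ones.

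Cytosolic ribosomal proteins and complex I subunits are 2 further gene families that serve translation and respiration. Over all 6 libraries, 6.91% of all genes tested were wholly higher and 6.37% wholly lower in glioma, 13.3% in either direction. Cytosolic ribosomal proteins were positive in 66 of 81 cases (median 0.77), with 17 wholly higher and 0 wholly lower in glioma (21% in either direction). Complex I subunits were positive in 26 of 36 cases (median 0.56). They were taken as symbols made of Nduf, a letter a, b, c, s or v, and a number with nothing after it. Of them 5 were wholly higher and 1 wholly lower (16.7% in either direction). The members were positive in 42 of 75 cases (median 0.23), with 6 wholly higher and 2 wholly lower. Over genes above 0 in all 6 libraries, the medians were -0.22 for 49 members, 0.77 for 80 cytosolic ribosomal proteins and 0.50 for 33 complex I subunits. Of the cytosolic ribosomal proteins, 73 of 81 were positive without normal replicate 1 (median 0.99), with 48 wholly higher and 2 wholly lower. Of the complex I subunits, 21 of 36 were then positive (median 0.55), with 12 wholly higher and 5 wholly lower. The members were positive in 42 of 75 cases (median 0.15), with 17 wholly higher and 5 wholly lower. In that setting 1744 of all 11669 genes tested were wholly higher and 2406 wholly lower. The members were thus more often wholly higher than wholly lower, and all genes the other way. In either direction the groups did not overlap for 29.3% of the members, beside 35.6% of all genes tested. For cytosolic ribosomal proteins that share was 61.7%, and for complex I subunits 47.2%. No gene of these 3 lists passed the adjusted threshold, and the difference between the lists was not tested.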

How the data were processed

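Endothelial cells were sorted from glioma and from normal mouse brain, and their Trizol RNA went into 3′ tag libraries by Lexogen's QuantSeq protocol, per the labels. Bowtie2, edgeR and build mm10 are named without role, per the submitters' processing notes, and how reads were counted and normalized is not given in the sources used here. The 6 deposited files hold a log2 value for each of 24421 symbols, read from the values as log2(x + 1) of values quantile-normalized by the authors, with genes without reads left at 0. Sequencing depth is therefore unknown, and no interval based on counts is given.

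A linear model with the group as its single term and a mean trend in the variance prior was fitted to these log2 values (limma 3.58.1, R 4.3.3). Genes had to reach a back-transformed value of 1 in 3 or more libraries, and p was adjusted over the 11862 that did by the Benjamini-Hochberg method. Samples were grouped by their titles. Differences are glioma minus normal, and the gap between 0 and a library's lowest value widens them for genes listed at 0. The fit was tested on simulated data. Near-identical 3′ ends (at least 95% identity over at least 200 of the last 300 transcript bases) were sought with blastn 2.17.0.

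The members and lists were chosen with earlier results of these data known. Named by rule were the 4 members of each subunit with the smallest p, the 3 with the highest mean, those whose groups did not overlap, the 2 steadiest of each subunit, Mrps30 and the Mrps18 family, Mrpl12, untested members, and 2 genes of each other list. Mrpl10, Mrpl46, Mrpl36, Mrpl47, Mrpl57, Mrps6 and Mrpl22 and the head-to-head neighbours were chosen after their values or sequences were seen. Alternatives were another pseudocount, a shared floor, other filters, no mean trend, a replicate block and left-out libraries.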

Additional observations from a re-analysis of the deposited data

How the results depend on the processing

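The lack of low values limits these results, since normal replicate 1 holds no value between 0 and 7.43, and a member at 0 there cannot be placed below that level. No member passed the adjusted threshold under any alternative, and without a mean trend 15 other genes did (smallest adjusted p of a member 0.329). Without normal replicate 1 and glioma replicate 1 together, 1671 genes had an unadjusted p under 0.05, in place of 509, and with 1 library left out 233 to 1173 did. The median of all genes was -0.36 without normal replicate 1 and -0.22 without both, so differences there are read against those values.

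The large subunit's median of 0.51 was 0.28 with a pseudocount of 32, 0.11 with the shared floor, -0.20 over genes above 0 in all 6 libraries, -0.043 without both libraries, and 0.16 to 0.65 with 1 library left out. Its positive members numbered 14 over genes above 0 in all 6. Its 4 members wholly higher in glioma became 2 with the shared floor, 1 over genes above 0 in all 6, 17 without both and 5 to 12 with 1 left out. Its 1 wholly lower member became 9 without both and 1 to 5 with 1 left out. The small subunit's 11 positive members became 6 over genes above 0 in all 6. Its 2 wholly higher members became 1 with the shared floor, 0 over genes above 0 in all 6, 6 without both and 2 to 5 with 1 library left out, and its 1 wholly lower member 0, 0 and 4 in the same order, and 1 to 4 with 1 left out. The groups did not overlap for 5.41% of the members with the shared floor, 4.08% over genes above 0 in all 6 and 48.6% without both, beside 10.5%, 13.7% and 55.1% of all genes. Without both, 23 of 74 members were wholly higher and 13 wholly lower, beside 2801 and 2995 of 10510 genes. Without normal replicate 1 alone, all genes held 1744 wholly higher and 2406 wholly lower of 11669. The median of the assembly list, -0.65, was -0.25 with the shared floor, -0.98 without both and -0.95 to -0.11 with 1 left out. That of the translation factors, 0.51, was 0.031 with the shared floor, 0.16 without both and -0.45 to 0.76 with 1 left out. That of transcription and RNA processing was 0.38 to 2.94 with 1 left out.

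Without both libraries the differences of Mrpl55, Mrps18a and Mrps18b were 0.22, 0.33 and 0.21, of the opposite sign to those over all 6. With 1 library left out the difference crossed 0 for Mrpl11 (-0.42 to 0.020), Mrpl43 (-0.037 to 0.54), Mrps25 (-0.060 to 0.49), Mrps18a (-0.22 to 0.21), Mrps30 (-1.08 to 0.022), Mrps18b (-0.95 to 0.35) and Mrps18c (-0.23 to 1.52). The cause of these changes was not tested. Deviations of libraries with the same replicate number correlated at 0.131, 0.027 and 0.062, so the numbers share little. With the replicate number as a block, 610 genes had an unadjusted p under 0.05 and 0 passed the adjusted threshold (smallest adjusted p 0.790).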
